A study of Homo sapiens with 4 samples.

Results

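The replication-dependent histone genes were taken as every gene on the array whose symbol is H1- and digits, or H2AC, H2BC, H3C or H4C and digits. The rule found 72 genes with 81 probes, of 20043 genes with 30110 probes in all. They comprised 9 linker histone genes (H1), 17 H2A, 18 H2B, 13 H3 and 15 H4 genes. Of these, 55 lie on chromosome 6, 13 on chromosome 1, 2 on chromosome 3 and 2 on chromosome 12. The H1 symbols also take in H1-10, known as a linker histone made outside S phase, and the germ cell linker histones H1-6, H1-7 and H1-8.

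Gene expression was measured on 4 Illumina bead arrays, 1 per group. The first group was the breast cancer line MDA-MB-231. The others were all MCF10A, a non-tumorigenic breast epithelial line: left untreated, given exosomes (small secreted vesicles) from MDA-MB-231, or given such exosomes after an antibody against Dicer, the enzyme that matures microRNAs, had been put inside them. They are called here the MDA-MB-231, untreated, exosome and anti-Dicer arrays. All cells were grown with serum depleted of exosomes, and the sources used here give neither the dose nor the length of treatment. With 1 array per group there is no replicate spread, so every difference below is one between 2 arrays, without a test, and the number of arrays limits its precision.

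Core histones H2A, H2B, H3 and H4 form the spool of the nucleosome, and linker histone H1 binds the DNA between spools. Replication-dependent genes supply most histones during S phase, when newly copied DNA must be packaged, and they sit in clusters of many near-identical copies. Their messenger RNAs end in a stem-loop bound by SLBP instead of a poly(A) tail. Some of them, H2BC12, H2BC21, H2BC5, H2AC6 and H1-2 among them, are known in human cells to be made also in a polyadenylated form. The labels' protocol does not say how the reverse transcription was primed, and what this did to the signals was not tested.

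Signals are given as deposited, in linear units that include background, and a gene counts as detected where its detection p is below 0.01. Probes have their own scales, so a signal is compared only with that of the same probe on another array. Folds come from background-corrected signals, quantile-normalized over the 4 arrays, and genes at least 2-fold apart (1 on the log2 scale) were counted. Where a gene was detected on 1 of the 2 arrays only, the difference is a bound against the lowest detected value of the dimmer array. Folds written with "at least" are the smallest of such bounds over 6 scalings of the arrays. Where several copies of a family share sequence, a probe can report more than 1 of them, and which copy gave a signal was not tested.

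The upstream sequences of 4 genes are shown first, because they belong to the members of the H2B and H4 families that differed in opposite directions between the anti-Dicer and untreated arrays. H2BC21 and H4C8 were lower on the anti-Dicer array, and H2BC9 and H4C12 were higher. Each run holds the 250 bases before the gene's start, from RefSeq on GRCh38.p14. Capitals mark CCAAT, bound by NF-Y, then the TATA box spelled TATAAA, and the octamer bound by OCT1 and spelled ATTTGCAT, on either strand, and no base fell in 2 of these motifs.
H2BC21, chr1:149886683-149886932, minus strand: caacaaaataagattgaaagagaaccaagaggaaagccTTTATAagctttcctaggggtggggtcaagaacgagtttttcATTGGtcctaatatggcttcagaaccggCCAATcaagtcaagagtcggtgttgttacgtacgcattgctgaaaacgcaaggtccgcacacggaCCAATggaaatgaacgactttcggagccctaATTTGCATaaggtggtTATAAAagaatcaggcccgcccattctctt
H2BC9, chr6:26251364-26251613, plus strand: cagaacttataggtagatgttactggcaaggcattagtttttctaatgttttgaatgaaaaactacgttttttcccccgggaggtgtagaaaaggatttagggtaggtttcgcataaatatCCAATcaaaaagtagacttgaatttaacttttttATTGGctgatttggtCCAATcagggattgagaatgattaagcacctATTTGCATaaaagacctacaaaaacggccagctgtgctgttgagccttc
H4C8, chr6:26285535-26285784, minus strand: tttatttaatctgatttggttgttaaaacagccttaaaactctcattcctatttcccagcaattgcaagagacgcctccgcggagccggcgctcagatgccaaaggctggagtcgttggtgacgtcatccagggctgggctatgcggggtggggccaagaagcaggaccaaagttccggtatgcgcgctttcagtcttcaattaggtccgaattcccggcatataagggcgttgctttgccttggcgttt
H4C12, chr6:27831561-27831810, minus strand: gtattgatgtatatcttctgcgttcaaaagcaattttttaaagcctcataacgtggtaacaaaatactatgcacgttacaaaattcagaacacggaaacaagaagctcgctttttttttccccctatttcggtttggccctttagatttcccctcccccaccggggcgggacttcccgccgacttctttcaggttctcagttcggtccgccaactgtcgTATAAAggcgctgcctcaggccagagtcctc

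The TATA box lay 30 bases before the start in H2BC21 and 31 bases before it in H4C12, and the octamer 46 bases before it in H2BC21 and 49 in H2BC9. H4C8 held none of the 3 motifs as spelled here. An upstream sequence was found for 67 of the 72 genes, and H2AC12, H3C11, H3C12, H4C1 and H4C3 are named only. CCAAT stood in all 16 H2A, all 18 H2B and all 11 H3 sequences, in 8 of 9 H1 and in 3 of 13 H4 sequences, against 33% of 27305 sequences of the same length over all genes. The octamer was found in 11 of 16 H2A, 14 of 18 H2B and 1 of 11 H3 sequences and in 0 of the H1 and H4 sequences, against 1.66% of all genes. The 1 H3 sequence with the octamer is that of H3C4, which is identical to the sequence listed for the H2A gene H2AC7, so it is counted in both families. TATAAA stood in 43 of 67 histone sequences, against 11.1% of all genes. Among the members lower on the anti-Dicer array, 8 of 9 held CCAAT, 8 of 9 TATAAA and 5 of 9 the octamer. Among those higher there with a sequence, the counts were 3, 2 and 1 of 4. Over all 67 members with a sequence the shares were 83.6%, 64.2% and 38.8%. Most of the lower members are H2A or H2B genes, the families that held the octamer, so family and direction cannot be told apart in these counts.

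Marker genes went against the label of the untreated array, and some went against that of the anti-Dicer array. MCF10A is therefore used below only as what the labels say. KRT5, KRT14 and CDH1, which mark MCF10A as epithelial, were not detected on any array. All 10 fibroblast markers were detected on the untreated array, with the collagen COL1A2 at 18125 units, LUM at 8848 and THY1 at 7260, and on the anti-Dicer array these 3 were not detected. The fibroblast markers summed to 67628 units on the untreated array, 6670.0 on the anti-Dicer array (5 detected), 539 for MDA-MB-231 cells and 544 on the exosome array (0 detected on either). The 5 detected on the anti-Dicer array were COL6A3 (4718 units), COL1A1 (1234), PDGFRB (172.7), COL3A1 (162.4) and FAP (108.5). Without COL6A3 the fibroblast sums were 56647 and 1952 units on the untreated and anti-Dicer arrays. The 9 epithelial markers with a probe summed to 1208 units on the untreated array (2 detected), 4231 on the anti-Dicer array (5 detected), 494 for MDA-MB-231 cells and 535 on the exosome array (0 detected on either). LAMB3 carried most of that gap, at 145 and 3186 units on the untreated and anti-Dicer arrays, and without it the sums were 1063 and 1046 units. KRT8 (53.2 and 371 units), KRT18 (55 and 165 units) and EPCAM (49.1 and 83.7 units) were detected on the anti-Dicer array only. DSP ran the other way, at 716 and 222 units. The part of these differences in the results below was not tested. In bulk RNA, fewer cells of a type and less RNA per cell cannot be told apart.

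Histone genes were detected less widely than other genes on the arrays with many detected probes. On the untreated array 28 of 72 were detected (38.9%), against 55.4% of all genes, and on the anti-Dicer array 35 (48.6%), against 55.3%. The MDA-MB-231 array detected 9 members (12.5%) and the exosome array 4 (5.56%), where 7.91% and 7.83% of all genes were detected. On the anti-Dicer array 8 of 13 H3 genes were detected, against 4 on the untreated array. The H4 counts were 8 and 6 of 15, H2A 9 and 7 of 17, H2B 7 and 8 of 18, and H1 3 and 3 of 9. By position, 8 of 13 genes on chromosome 1 and 19 of 55 on chromosome 6 were detected on the untreated array. No array detected 33 of the members: H1-3 to H1-8, H2AC1, H2AC7, H2AC12 to H2AC16, H2AC21, H2BC1, H2BC3, H2BC7, H2BC10, H2BC13, H2BC14, H2BC17, H2BC26, H3C2, H3C11, H3C12, H3C15, H4C1, H4C4, H4C6, H4C7, H4C9, H4C13 and H4C16. This set holds the germ cell genes H2AC1, H2BC1, H1-6, H1-7 and H1-8.

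**Figure D1:**
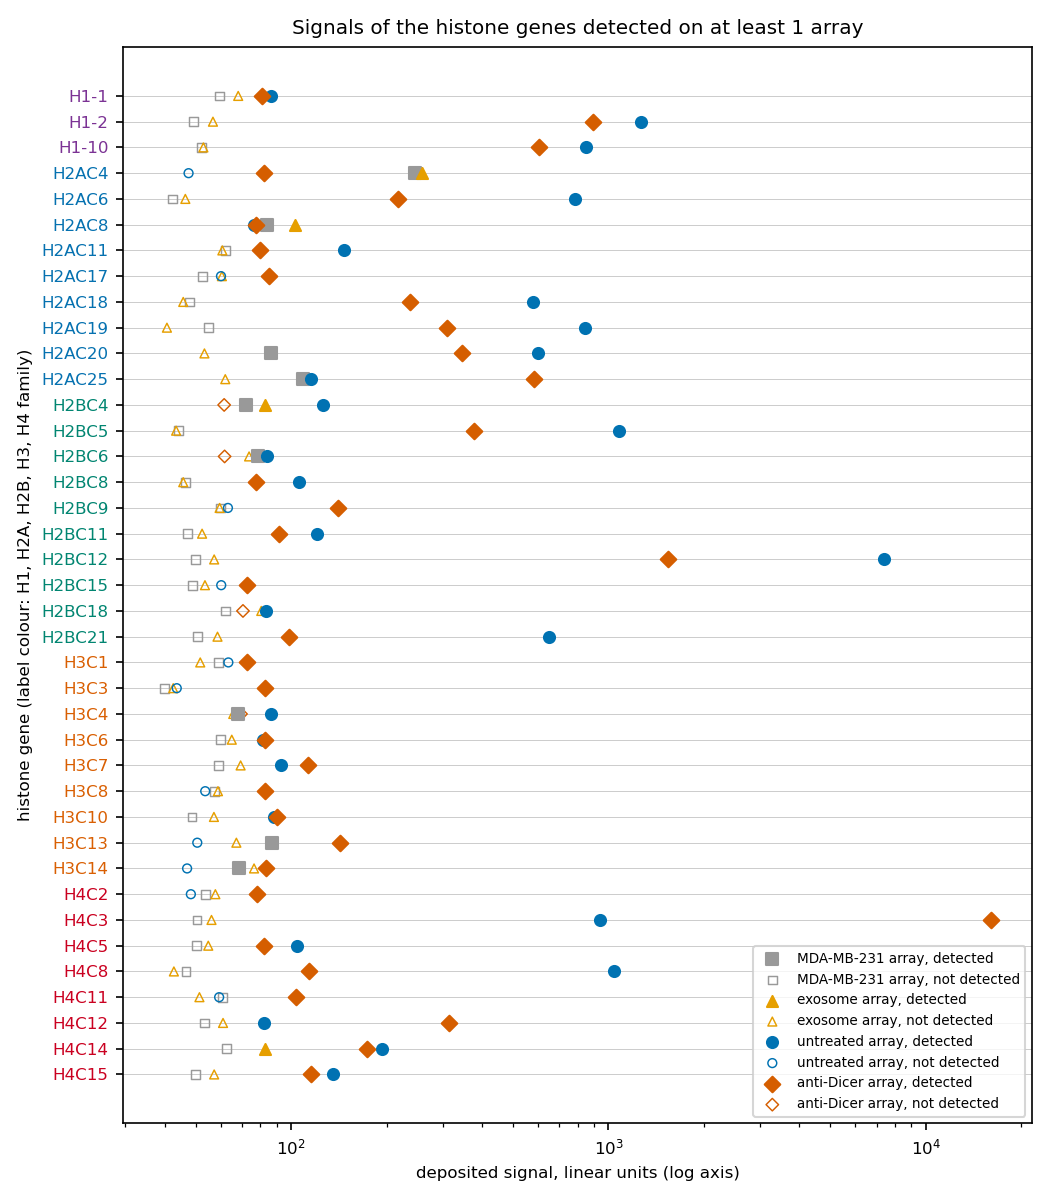
Deposited signal (log axis, linear units with background) of each of the 39 histone genes detected on at least 1 array, 1 point per array, filled where detected at p below 0.01 and open where not. Most points of the MDA-MB-231 and exosome arrays are open and lie between 39.9 and 80.5 units. H4C3 at 16024 units on the anti-Dicer array and H2BC12 at 7410.5 units on the untreated array lie farthest from their own values on the other arrays.

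The anti-Dicer array against the untreated array sets MCF10A cells labelled as given exosomes with Dicer antibody inside against those labelled untreated. The histone genes did not move as a block. Of 39 compared, 9 were at least 2-fold lower on the anti-Dicer array (23.1%) and 5 higher (12.8%), where 16.7% of all 12252 genes compared were lower and 14.8% higher. The median log2 difference was -0.20, against -0.01 over all genes. Under median scaling, which lowered the median over all genes with a signal on both arrays to -0.28, it was -0.33, and the share of higher genes among all those past 2-fold went from 47.0% to 33.7%. Of the 25 others, 13 were measured on both arrays and 12 were bounds below 2-fold, which leave the size of the difference unknown. The 9 lower members were H2BC4, H2BC5, H2BC12, H2BC21, H2AC6, H2AC11, H2AC18, H2AC19 and H4C8, and the 5 higher were H4C3, H4C12, H2AC25, H2BC9 and H3C13. Thus 8 of the 9 lower genes code for H2A or H2B, families that gave 9 and 10 of the 39 genes compared. All 14 kept their direction under all 6 scalings. For H2BC4, H2BC9 and H3C13, which are bounds, detection set the direction, so no scaling could reverse it. Past 2-fold under every scaling were 6 of the 14, 3 lower (7.69% of members, 6.94% of all genes) and 3 higher (7.69% and 5.2%). The 3 lower were H2BC12, H2BC21 and H4C8, and the 3 higher H4C3, H4C12 and H2AC25.

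Among H2B genes, whose products pair with H2A at the face of the nucleosome, H2BC12 read 7410.5 units on the untreated array and 1541 units on the anti-Dicer array, and 50 and 57.2 units, not detected, for MDA-MB-231 cells and the exosome array. It was 4.17-fold lower on the anti-Dicer array, and 4.49-fold lower without background correction. Its second probe read 2243 and 396 units on the untreated and anti-Dicer arrays, a log2 difference of -2.30 beside -2.06 for the first. H2BC21 read 650.1 units on the untreated array and 98.2 units on the anti-Dicer array, with 50.6 and 58.6 units, not detected, for MDA-MB-231 cells and the exosome array. That was a 7.12-fold difference, but 2.69-fold without background correction, which acts most on dim probes. For both genes only the untreated and anti-Dicer arrays gave a detected signal, and the untreated one was the higher.

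H2BC5 read 1080 units on the untreated array and 377 units on the anti-Dicer array, against 44.1 and 43.4 units, not detected, for MDA-MB-231 cells and the exosome array. The 2.53-fold difference was 1.66-fold without background correction. Of its other probes, 1 was detected and differed by -0.70 on the log2 scale, under 2-fold. H2BC4 read 126 units on the untreated array and 61.5, not detected, on the anti-Dicer array, and was detected at 72.2 and 83.0 units for MDA-MB-231 cells and the exosome array. Its difference is a bound, at least 1.39-fold. In the other direction H2BC9 read 140 units on the anti-Dicer array and 59.8, 59.5 and 63.2 units, not detected, for MDA-MB-231 cells and on the exosome and untreated arrays, at least 1.46-fold higher than the untreated value. H2BC8 and H2BC11 read 106 and 121 units on the untreated array and 77.3 and 91.8 units on the anti-Dicer array, within 2-fold. H2BC6, H2BC15 and H2BC18 were each detected on 1 of these arrays only, at 83.7, 72.6 and 83.4 units, and gave bounds below 2-fold.

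H2A genes code for the partner of H2B and carry the acidic patch that many chromatin proteins hold on to. H2AC6 read 784 units on the untreated array and 218 units on the anti-Dicer array, and 42.3 and 46.4 units, not detected, for MDA-MB-231 cells and the exosome array. It was 3.39-fold lower on the anti-Dicer array, and 1.90-fold lower without background correction. H2AC18 and H2AC19 are copies of one another on chromosome 1, so their probes may read the same transcripts. H2AC18 read 578 and 237 units on the untreated and anti-Dicer arrays and H2AC19 read 844 and 309, while neither was detected on the MDA-MB-231 or exosome array, at 40.6 to 55 units. Their differences were 2.25-fold and 2.47-fold, or 1.53-fold and 1.62-fold without background correction, and the second H2AC18 probe differed by -1.95 on the log2 scale. H2AC11 was near the detection limit on the anti-Dicer array, at 79.9 against 147 units on the untreated array, 2.07-fold lower or 1.40-fold without background correction. It was not detected at 62.2 units for MDA-MB-231 cells and 60.7 units on the exosome array. Its second probe was detected on no array, at 45.9 and 46.5 units on the untreated and anti-Dicer arrays. The mean over the H2AC11 probes gave a log2 difference of -0.53, under 2-fold.

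H2AC25, the single H2A gene that was at least 2-fold higher, read 582 units on the anti-Dicer array, 116 on the untreated array, 109 for MDA-MB-231 cells and 62.0, not detected, on the exosome array. It was 5.98-fold higher than on the untreated array, and 2.49-fold higher without background correction. H2AC20 read 600 units on the untreated array and 346 units on the anti-Dicer array, a log2 difference of -0.63. H2AC8, at 76.6 and 77.4 units, differed by less than 2-fold. H2AC4 and H2AC17 were not detected on the untreated array, at 47.5 and 60.1 units, and read 82.2 and 85.4 units on the anti-Dicer array. Their bounds of 0.24 and 0.31 on the log2 scale leave the size of the difference unknown.

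H2A and H2B genes often lie head to head, with their starts close together on opposite strands. Among genes with an upstream sequence, 11 such pairs had their starts 194 to 248 bases apart. In 4 pairs both genes could be compared, and the normalized values had a negative sign for both partners, though for 4 of the 8 genes the difference was under 2-fold. Negative signs were common in both families, with medians of -0.63 over the 9 H2A and -0.56 over the 10 H2B genes compared. Whether pairing bears on the sign was not tested. In H2BC4 and H2AC6 both partners were past 2-fold, at log2 differences of -1.02 (a bound) and -1.76. H2BC21 differed by -2.83 and its partner H2AC20 by -0.63, H2BC11 by -0.50 and its partner H2AC11 by -1.05, and H2BC8 by -0.61 and its partner H2AC8 by -0.09. H2AC8 read 76.6 and 77.4 units on the untreated and anti-Dicer arrays, and its sign was not kept under all 6 scalings. H2AC25, higher by 2.58 on the log2 scale, has the partner H2BC26, which no array detected. The sequence printed for H2BC21 thus reaches past the start of H2AC20, 236 bases away.

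H4 genes, which all code for nearly the same protein, held the largest differences of either sign in the main setting. Without background correction H2BC12 was lower by more than any H4 gene. H4C3 read 939 units on the untreated array and 16024 units on the anti-Dicer array, and 50.5 and 56.1 units, not detected, for MDA-MB-231 cells and the exosome array. It was 25.8-fold higher on the anti-Dicer array, 17.1-fold by the deposited signals alone and 14.0-fold under the scaling that gave the least. H4C8 went the other way, at 1039 units on the untreated array and 114 units on the anti-Dicer array, with 46.6 and 42.7 units, not detected, for MDA-MB-231 cells and the exosome array. It was 9.53-fold lower, and 3.21-fold lower without background correction. H4C12 read 82.4 units on the untreated array, 314 on the anti-Dicer array, and 53.3 and 61.0 units, not detected, for MDA-MB-231 cells and the exosome array. It was 4.51-fold higher on the anti-Dicer array, and 2.08-fold without background correction.

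The upstream sequence of H4C11 is 98% identical to that of H4C12, and H4C11 read 104 units on the anti-Dicer array and 59.3 units, not detected, on the untreated one, a bound of 0.66 on the log2 scale. H4C14 and H4C15, whose upstream sequences are identical, read 193 and 136 units on the untreated array and 173 and 116 on the anti-Dicer array. Both stayed within 2-fold, at log2 differences of -0.10 and -0.28, as did H4C5 at -0.47. H4C2 was not detected on the untreated array, at 48.3 units against 78.3, and its bound was 0.14.

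H3 genes, whose tails carry many of the marks of active and silent chromatin, had low signals throughout. Over all 13, the highest was 92.9 units on the untreated array and 142 units on the anti-Dicer array, and the lowest signal of any detected gene on that array was 72.1. H3C13 read 142 units on the anti-Dicer array, 87.3 on the MDA-MB-231 array, and 67.2 and 50.6 units, not detected, on the exosome and untreated arrays. It was at least 1.47-fold higher on the anti-Dicer array than on the untreated array by this probe. Of its other probes, 1 was detected on the anti-Dicer array (85.6 units) and not on the untreated array (56.3 units), and the mean over its probes gave a log2 difference of 0.40, under 2-fold. H3C1, H3C3, H3C8, H3C13 and H3C14 were detected on the anti-Dicer array and not on the untreated array, and H3C4 the other way round. Of the 9 H3 genes compared, H3C6, H3C7 and H3C10 were measured on both arrays and were within 2-fold, and the other 5 besides H3C13 gave bounds below 2-fold, which do not show that the difference was small.

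The 3 linker histone genes compared, of 9, differed little, and the other 6 were detected on no array. H1-2, a somatic H1 made in most cells, read 1266 units on the untreated array and 892 units on the anti-Dicer array, against 49.3 and 56.7 units, not detected, for MDA-MB-231 cells and the exosome array. H1-10 read 847 and 603 units on the untreated and anti-Dicer arrays, and 52.1 and 52.9, not detected, on the other arrays. H1-1 read 86.4 and 80.9 units on the untreated and anti-Dicer arrays. The 3 log2 differences were -0.27, -0.29 and -0.20, so none of these 3 genes reached 2-fold. Leaving out H1-6, H1-7, H1-8 and H1-10 could change neither count of members past 2-fold. Of these, H1-6, H1-7 and H1-8 were not compared, and H1-10 was within 2-fold.

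**Figure D2:**
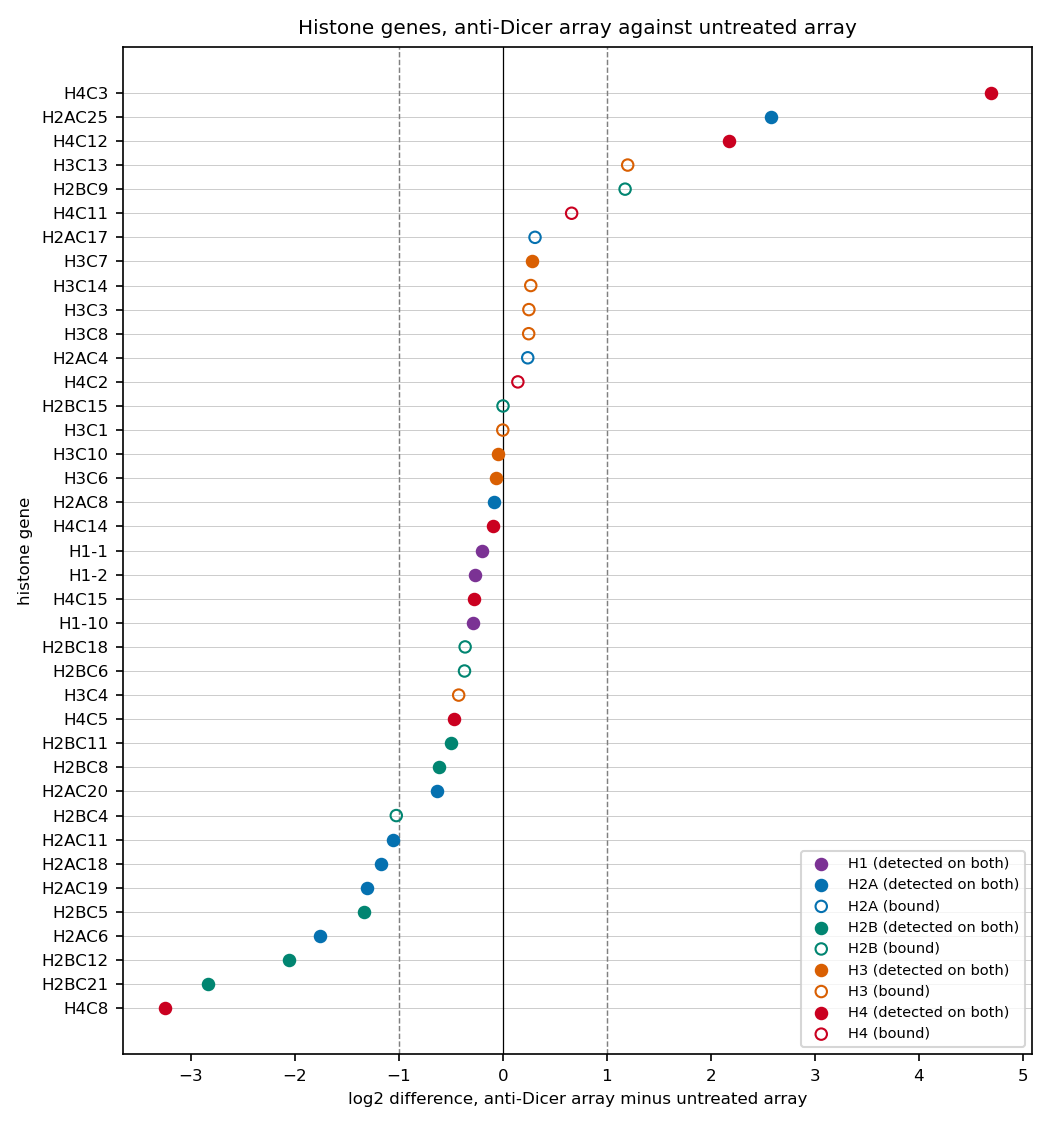
Log2 difference between the anti-Dicer and untreated arrays (horizontal axis) for the 39 histone genes compared, coloured by family, with open points for bounds and dashed lines at 2-fold. H4C3 stands at 4.69 and H4C8 at -3.25. The 8 other genes at or below -1 are all H2A or H2B genes, families with 9 and 10 of the 39 genes drawn.

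**Figure D3:**
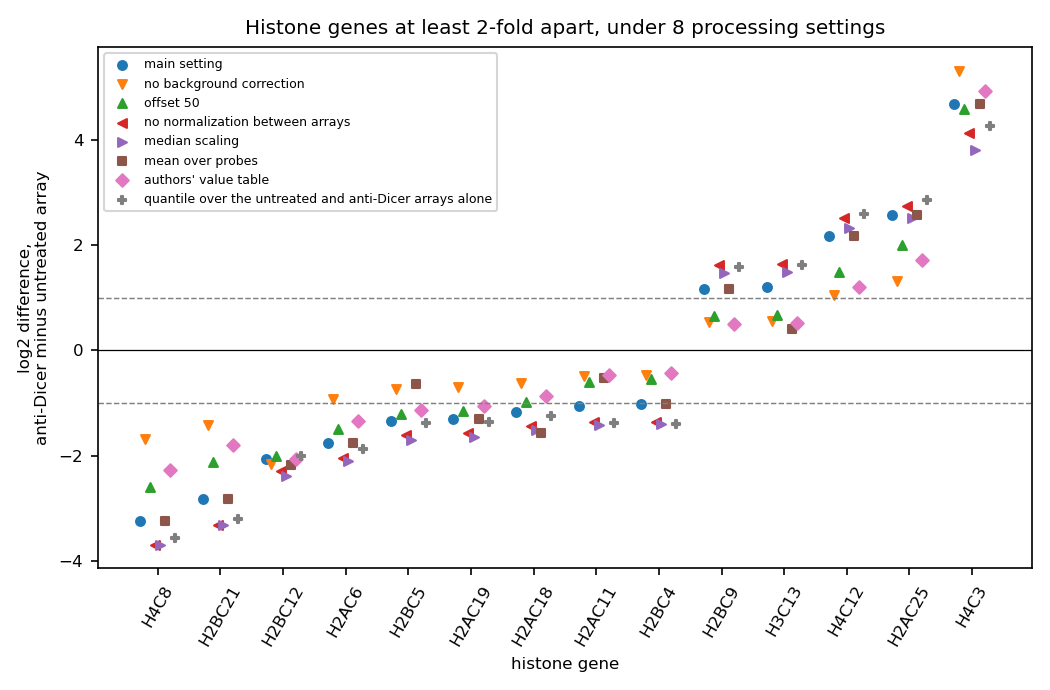
Log2 difference between the anti-Dicer and untreated arrays (vertical axis) for the 14 histone genes at least 2-fold apart, under 8 processing settings marked by symbols, with dashed lines at 2-fold. All 14 keep their sign under the settings drawn, while 6 of the 14 stay past 2-fold without background correction. For the bounds of H2BC4, H2BC9 and H3C13 detection set the sign.

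Genes of S phase, the phase in which replication-dependent histones are made, were mostly higher in the same comparison. Of 37 compared, 30 were at least 2-fold higher on the anti-Dicer array (81.1%, against 14.8% of all genes) and 0 lower (against 16.7%). Their median log2 difference was 1.77, where the histone genes had 5 higher and 9 lower of 39 and a median of -0.20. The ribonucleotide reductase subunit RRM2 read 107 and 1292 units on the untreated and anti-Dicer arrays, 14.8-fold higher. The helicase subunit CDC45 read 148 and 1706 units, 14.1-fold higher. The clamp loader subunit RFC3 was 12.6-fold higher and the primase subunit PRIM1 6.89-fold higher. Under the scaling that gave the least, RRM2 was 4.10-fold, CDC45 4.15-fold, RFC3 3.86-fold and PRIM1 2.72-fold higher. Of the 37 compared, 16 were at least 2-fold higher under all 6 scalings, against 5.2% of all genes. Without background correction the S phase median was 0.94 and that of the histone genes -0.09.

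Genes that make and process histone messenger RNA lay between. Of 17 compared, 3 were higher (17.6%, close to the 14.8% of all genes) and 0 lower, with a median of 0.34. CDK2, the kinase that activates the histone gene coactivator NPAT, was 3.20-fold higher, CPSF3, the nuclease that cuts histone precursor RNA, 2.62-fold and CSTF2, a cleavage factor, 2.30-fold higher. Under the scaling that gave the least these were 1.90-fold, 1.76-fold and 1.57-fold, so none of the 3 was past 2-fold under all 6 scalings. The transcription factor YY1 differed by 0.92 on the log2 scale. NPAT itself read 99.4 and 120.0 units on the untreated and anti-Dicer arrays, a log2 difference of 0.27, and SLBP read 820 and 884 units, a difference of 0.34. CASP8AP2, a partner of NPAT, was not detected on any array.

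Among histone chaperones, which hand new histones to DNA, 7 of 20 were higher (35%, against 14.8% of all genes). Only 1 was lower (5%, against 16.7%), and the median was 0.78. ASF1B was 5.68-fold higher and CHAF1B, a subunit of the assembly factor CAF-1, 5.64-fold higher, while MCM2, also counted among the S phase genes, was 3.99-fold and the FACT subunit SSRP1 3.50-fold higher. Of the 7, 3 were past 2-fold under all 6 scalings, thus 3 of 20 compared, against 5.2% of all genes. ASF1B was 2.45-fold and CHAF1B 2.42-fold higher at the least. Histone variants made outside S phase were higher for 3 of 10 (30%, against 14.8%) and lower for 1 (10%, against 16.7%), with a median of 0.44. CENPA, the H3 variant of centromeres, was 5.79-fold higher, H3-5 4.13-fold and H2AZ1 3.10-fold higher, whereas MACROH2A2 was 8.23-fold lower, at 543 units on the untreated array against 76.5. At the least these were 2.53-fold, 2.91-fold, 2.04-fold and 2.83-fold. The lists share SLBP, MCM2, CDK2, CCNE1, CCNE2 and E2F1.

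**Figure D4:**
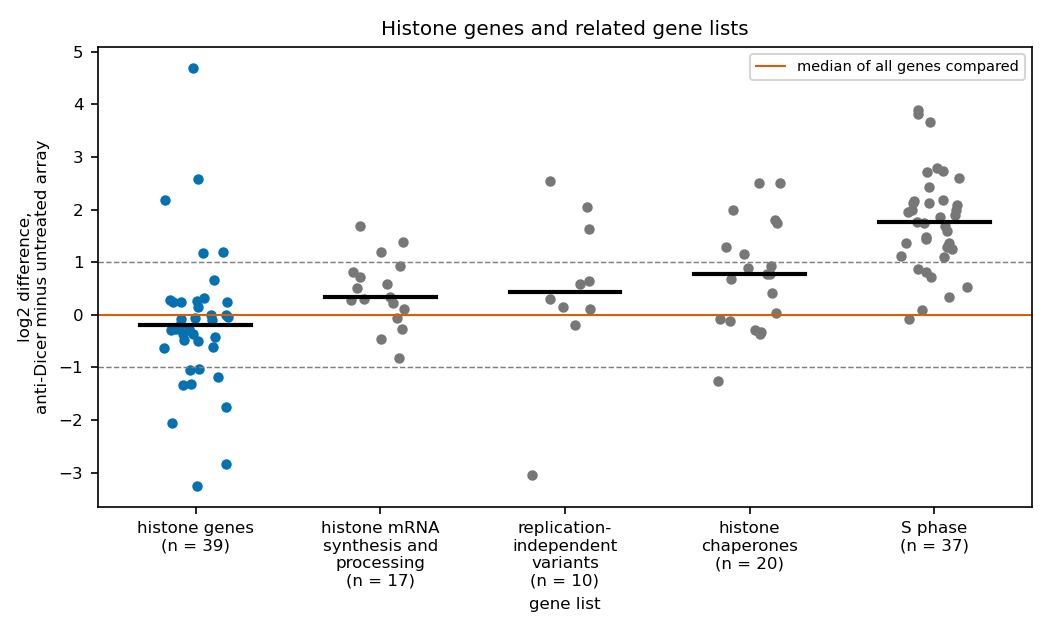
Log2 difference between the anti-Dicer and untreated arrays (vertical axis) for the 39 histone genes and 4 lists of related genes, 1 point per gene, bounds included, with a black bar at each median, dashed lines at 2-fold and the median of all 12252 genes compared as an orange line. The histone genes spread to both sides of 0 around a median of -0.20, and the S phase genes lie around 1.77.

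Few genes of any kind were detected for MDA-MB-231 cells (1586) or on the exosome array (1569), against 11110 and 11084 on the untreated and anti-Dicer arrays. Groups and this split cannot be told apart in comparisons that join the 2 kinds of array, and most member differences there were bounds that came to 0. A detected gene had a normalized log2 value of at least 9.64 for MDA-MB-231 cells and 9.66 on the exosome array, against 4.83 and 4.82 on the untreated and anti-Dicer arrays. Of the histone variants made outside S phase, 4 of 11 were detected on both arrays with few detected genes. They are named here after their values were seen: H2AZ1, H2AJ, H3-3A and MACROH2A1. H2AZ1 read 7278 units on the MDA-MB-231 array, 18813 on the exosome array, 5431 on the untreated array and 13131 on the anti-Dicer array.

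The exosome array against the untreated array sets MCF10A cells labelled as given exosomes against those labelled untreated. H2AC4 was the 1 histone gene at least 2-fold higher under all 6 scalings. It read 259 units on the exosome array and 47.5 units, not detected, on the untreated array, at least 3.82-fold higher. Its other signals were 246 units for MDA-MB-231 cells and 82.2 units on the anti-Dicer array, so it was high on the 2 arrays with few detected genes. H2BC12 was the 1 gene lower under all 6 scalings, at least 4.27-fold. In the main setting 4 of 29 members were higher (13.8%, against 12% of all genes) and 1 lower (3.45%, against 5.37%). Under all 6 scalings 1.25% of all genes were higher and 4.1% lower. Of all genes past 2-fold, 69.2% were higher, but 2.04% with no normalization between arrays. Of the other 3 higher, H2AC8 read 103 units on the exosome array and 76.6 on the untreated array, 1.35-fold by the deposited signals. H2BC4 read 83.0 against 126 units and H4C14 83.0 against 193, so for both the deposited signals run against the normalized ones.

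The exosome array against the anti-Dicer array sets MCF10A cells labelled as given exosomes against those labelled as given exosomes with Dicer antibody inside. Of 36 member differences 33 were bounds, and the part of Dicer was not tested. H2AC4 read 259 against 82.2 units and was higher under all 6 scalings, by 3.15-fold at the least. H4C3 read 56.1 units, not detected, against 16024 and was at least 13.3-fold lower on the exosome array. In the main setting 4 of 36 members were higher (11.1%, against 12.2% of all genes) and 1 lower (2.78%, against 4.86%). Under all 6 scalings 1.22% of all genes were higher and 3.68% lower. Of all genes past 2-fold, 71.5% were higher, but 1.95% with no normalization between arrays. This comparison and the preceding one share the exosome array.

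The MDA-MB-231 array against the untreated array sets the line that gave the exosomes against cells labelled as MCF10A without exosomes. H2AC4 read 246 units on the MDA-MB-231 array against 47.5, not detected, and was at least 3.63-fold higher, while H2BC12, at 50 against 7410.5 units, was lower by at least 4.33-fold. These were the members past 2-fold under all 6 scalings. In the main setting 9 of 31 were higher (29.0%, against 12.3% of all genes) and 1 lower (3.23%, against 5.52%). Under all 6 scalings 0.326% of all genes were higher and 4.19% lower. Of all genes past 2-fold, 69.1% were higher, but 0.579% with no normalization between arrays. The other 8 higher, H2AC8, H2AC20, H2AC25, H2BC4, H2BC6, H3C4, H3C13 and H3C14, read 67.9 to 109 units on the MDA-MB-231 array, and 5 of the 8 read higher on the untreated array in deposited signal. H2AC20, for one, read 86.3 against 600 units.

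Between the exosome and MDA-MB-231 arrays, both with few detected genes, 10 members could be compared and 0 were higher (4.36% of all 1948 genes). H2AC20, H2AC25 and H3C13 were lower in the main setting (3 of 10, against 3.64%), all as bounds, at least 1.07-fold, 1.35-fold and 1.08-fold. Of all genes 8.01% were past 2-fold in either direction, of which 54.5% were higher, but 94.8% with no normalization between arrays. Under all 6 scalings 0 members passed, against 2.31% of all genes higher and 0.975% lower. H2AC4, H2AC8 and H2BC4 were detected on both arrays. H2AC4 read 246 units on the MDA-MB-231 array and 259 units on the exosome array, H2AC8 read 83.7 and 103 units, and H2BC4 read 72.2 and 83.0 units.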

How the data were processed

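RNA copies labelled with biotin were hybridised to Illumina bead arrays, 1 array per group, with groups from the labels. The authors deposited a non-normalized table with 1 intensity per probe and array, background included, and beside it a detection p-value. They also deposited a value table of intensity values normalized between arrays by a method not given in the sources used here. Its exosome column repeats the deposited detection p-value and was not used. The submitters' processing notes name limma, without its version. Of 47322 probes, 30110 had 1 symbol in the platform annotation, 8 had several (1 of them H3C6 with H3C11) and were left out. Symbols were updated through gene identifiers for 30071 probes, which left 20043 genes.

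Signals were processed with neqc in limma 3.58.1 (R 4.3.3), with background inferred from the detection p-values and an offset of 16. This was tested on simulated data made from the untreated array's levels, with known folds only in probes well above background. The simulation did not cover folds of dim probes or arrays with few detected genes. Of several probes of a gene, the one brightest on average over the 4 arrays was taken. A gene detected on 1 of 2 arrays got a bound: on the dimmer array, its own value or the lowest detected one was used, whichever was higher, and the bound was set to 0 where that left no difference. The 6 scalings were the main one, an offset of 50, quantile without background correction, no normalization between arrays, median scaling, and deposited signals alone. All histone genes detected could be named, as could up to 4 genes of each related list with the largest measured difference, and NPAT, SLBP and CASP8AP2. Members and lists were chosen with earlier results of these data known. Upstream sequences were matched by gene identifier. Python 3.11.15, numpy 2.4.6, pandas 2.3.3, scipy 1.17.1 and matplotlib 3.10.9 were used.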

Additional observations from a re-analysis of the deposited data

How the results depend on the processing

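No paired analysis was possible because each group holds 1 array, and leaving out an array leaves no comparison. For the anti-Dicer array against the untreated array, no member past 2-fold changed sign under any alternative. For H2BC4, H2BC9 and H3C13, which are bounds, detection set the sign, so a change of scaling could not turn it. With no detection filter their log2 differences were -1.29, 1.30 and 1.64. The higher members fell from 5 to 4 as a mean over probes. They fell to 3 in the authors' value table, over genes detected on both arrays, at offset 50 and where background was left uncorrected. The lower members fell from 9 to 8 over genes detected on both arrays and to 7 as a mean over probes. They numbered 6 in the authors' value table and at offset 50, and 3 where background was left uncorrected. The median of the members, -0.20, was -0.091 without background correction, -0.10 with an offset of 50, -0.33 under median scaling, -0.073 at a detection p below 0.05, 0.010 with no detection filter, -0.38 over genes detected on both arrays, -0.096 as a mean over probes and -0.076 in the authors' value table. It thus stayed within 0.4 of 0 and crossed it with no filter. Over the genes at least 2-fold apart in all, 47.0% were higher, 40.3% with no normalization between arrays and 33.7% under median scaling, which moved the overall median from -0.01 to -0.28. Over all genes the counts fell from 1815 higher and 2050 lower to 729 and 886 without background correction, and to 1168 and 1314 in the authors' value table. Normalizing the untreated and anti-Dicer arrays alone, an alternative chosen after seeing the data, left 5 higher and 9 lower.

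Medians of related lists kept their sign. Without background correction histone RNA processing became 0.19, variants 0.23, chaperones 0.43 and S phase 0.94. Under median scaling processing became 0.16, variants 0.061 and chaperones 0.46. Variants became 0.22 with no normalization between arrays and 0.27 in the authors' value table, and processing 0.51 as a mean over probes.

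Counts in comparisons that join arrays with few and many detected genes rested on the scaling. For the exosome array against the untreated array, 4 higher and 1 lower became 1 and 16 with no normalization between arrays, 1 and 13 under median scaling and 23 and 13 with no detection filter, with 7 higher at a detection p below 0.05 and 0 lower over genes detected on both arrays. Against the anti-Dicer array, 4 and 1 became 1 and 14, 1 and 12, and 19 and 12 under the first 3 of these, 7 and 2 at a detection p below 0.05, and 0 lower over genes detected on both. For MDA-MB-231 against untreated, 9 and 1 became 1 and 18, 1 and 15, and 24 and 14, and 0 lower over genes detected on both. For the exosome against the MDA-MB-231 array, 0 higher and 3 lower became 1 lower both with an offset of 50 and without background correction, 0 lower with no normalization between arrays, under median scaling and over genes detected on both arrays, 1 and 5 at a detection p below 0.05, 10 and 12 with no detection filter, and 2 lower as a mean over probes and with the MDA-MB-231 and exosome arrays normalized alone, again chosen after seeing the data. Over all genes, no normalization between arrays changed 1364 higher and 608 lower to 174 and 8358 (exosome against untreated), 1366 and 545 to 163 and 8194 (exosome against anti-Dicer), 1401 and 627 to 54 and 9275 (MDA-MB-231 against untreated) and 85 and 71 to 655 and 36 (exosome against MDA-MB-231). A detection p below 0.05 raised the histone genes detected on the exosome array from 4 to 7. Most H3 signals lay close to background, which limits what these arrays can show for them.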
